A study of Macaca mulatta with 27 samples.

Results

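This account covers the amino acid transporter genes of rhesus macaque pluripotent stem cells, chosen by gene symbol alone: every gene in the count tables that belongs to the solute carrier families SLC1A, SLC3A, SLC6A, SLC7A, SLC36A, SLC38A or SLC43A. The rule took 59 of the 17967 gene symbols in the tables. Poly(A) RNA had been sequenced in bulk in 27 libraries, 6 of them primed, the conventional state of primate embryonic stem cells, and 3 from each of 7 protocols intended to move the cells to the naive, earlier state. According to the methods of the study, all cells came from LyonES-tGFP-(S3), 1 clonal derivative of the rhesus embryonic stem cell line LyonES that carries a tauGFP transgene driven by the CAG promoter and a STAT3-ERT2 fusion that tamoxifen activates. TL2i cells received tamoxifen, LIF (leukaemia inhibitory factor) and inhibitors of MEK and GSK3β. TL-CDK8i cells received tamoxifen and LIF too, with CNIO-47799, an inhibitor of CDK8 and CDK19, in place of those inhibitors. E-NHSM, NHSM-v, 4i/L/b, t2iLGöY and LCDM (EPS) are media taken from earlier work and were used without tamoxifen, so the fusion protein was present but not induced; LCDM (EPS) is called LCDM from here on. Whether primed cells received tamoxifen is not given in the sources used here. Each protocol was set against primed cells, TL-CDK8i was also set against TL2i, and the protocols were compared among themselves.

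Amino acids enter cells through carriers that differ in what they couple transport to. SLC7A light chains such as SLC7A5 work as exchangers and need a heavy chain, SLC3A2 or SLC3A1, to reach the membrane. SLC1A, SLC6A and most SLC38A carriers are driven by sodium, and some SLC36A carriers, such as SLC36A1, by protons. Net uptake of glutamine by carriers of the SLC38A family supplies exchangers with the substrate they trade for leucine and other essential amino acids, and SLC38A9 on the lysosome reports arginine to the growth regulator mTORC1. The family rule also takes in carriers of other substrates, among them taurine (SLC6A6), creatine (SLC6A8), GABA (SLC6A11, SLC6A13) and the monoamines dopamine, serotonin and noradrenaline (SLC6A3, SLC6A4, SLC6A2).

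The libraries held 7111886 to 20760914 counts on genes, with a median of 12201171. A floor of 3 counts in a library corresponded to 0.138 to 0.422 CPM, where CPM is the count scaled to a common library size with TMM factors. Marker genes separated the protocols before any transporter was considered. The shares of all genes that rose and fell in each protocol are given below with the transporter counts. POU5F1, which defines pluripotent cells, had a mean of 1185 CPM in primed and 1363 in E-NHSM libraries and 498 in TL-CDK8i, against 0.296 in NHSM-v, 0.905 in 4i/L/b, 1.17 in t2iLGöY, 3.09 in LCDM and 6.43 in TL2i. The pluripotency list of 8 genes (POU5F1, NANOG, SOX2, PRDM14, TDGF1, LIN28A, DPPA4 and ZFP42) summed to 2964 to 3355 CPM in primed and 3209 to 3336 in E-NHSM libraries, 1124 to 1574 in TL-CDK8i, and 102 to 423 in the libraries of the other 5 protocols. The collagen and other fibroblast genes of a list of 9 summed to 1165 to 2388 CPM in primed libraries and to a mean of 13828 in 4i/L/b, 9829 in TL-CDK8i, 8201 in NHSM-v, 4360 in TL2i, 3676 in t2iLGöY, 874 in LCDM and 471 in E-NHSM. Of the genes of this list, 7 of 9 tested rose in 4i/L/b, TL2i and TL-CDK8i, 6 of 9 in NHSM-v, 3 of 7 in t2iLGöY, 2 of 9 in LCDM and 1 of 7 in E-NHSM, while 5 of 7 fell in E-NHSM, 4 of 9 in LCDM (COL1A1, COL1A2, PDGFRB and THY1), 2 of 7 in t2iLGöY, 1 of 9 in 4i/L/b and in TL2i, and none in NHSM-v or TL-CDK8i. A list of 8 trophoblast genes summed to 14.6 CPM or less in primed libraries, and its higher sums came mainly from 1 gene each. TFAP2A gave 177 of a mean of 178 CPM in LCDM, 134 of 137 in t2iLGöY and 82.0 of 111 in TL2i, and KRT7 gave 161 of 177 in TL-CDK8i, while KRT7 was at 0 and called lower in LCDM and t2iLGöY. Of the genes tested, 4 of 6 rose in TL2i, 2 of 5 in TL-CDK8i, 1 of 3 in NHSM-v, in t2iLGöY and in LCDM, and none in E-NHSM or 4i/L/b, where 2 of 4 and 1 of 2 fell. A list of 7 endoderm genes summed to 12.0 to 29.8 CPM in primed libraries and to a mean of 131 in LCDM, of which CXCR4 alone gave 125, while AFP was called lower there. In TL2i 5 of its 7 genes rose and 1 fell, in TL-CDK8i 3 of 7 rose, and in each other protocol at most 1 rose and at most 2 fell. In bulk RNA a lower level of a transporter in fewer cells of one type and less of its RNA in each cell cannot be told apart, and the part of these marker differences in the transporter results was not tested. The primed columns carry the letters J and K, 3 libraries each, whose meaning is not given, and several transporters differed between the letters, as is stated beside them.

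The summed counts of the transporter genes took a smaller share of all counts in 5 of the protocols. The 59 genes together held 0.391% to 0.460% of the counts in primed libraries and 0.392% to 0.403% in E-NHSM. TL-CDK8i libraries held 0.454% to 0.458%, within the primed range. The share was 0.292% to 0.301% in NHSM-v, 0.254% to 0.280% in 4i/L/b and 0.237% to 0.262% in TL2i. It was lowest in t2iLGöY, at 0.176% to 0.187%, and in LCDM, at 0.174% to 0.183%. The libraries of these 5 protocols lay below every primed library, and t2iLGöY and LCDM overlapped each other. The sum rests heavily on abundant genes and does not describe every member. In primed library K2 SLC7A5 and the taurine carrier SLC6A6 gave 13247 and 8019 of the 61236 transporter counts. In LCDM replicate 2 they gave 3839 and 1214 of 34892.

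**Figure D1:**
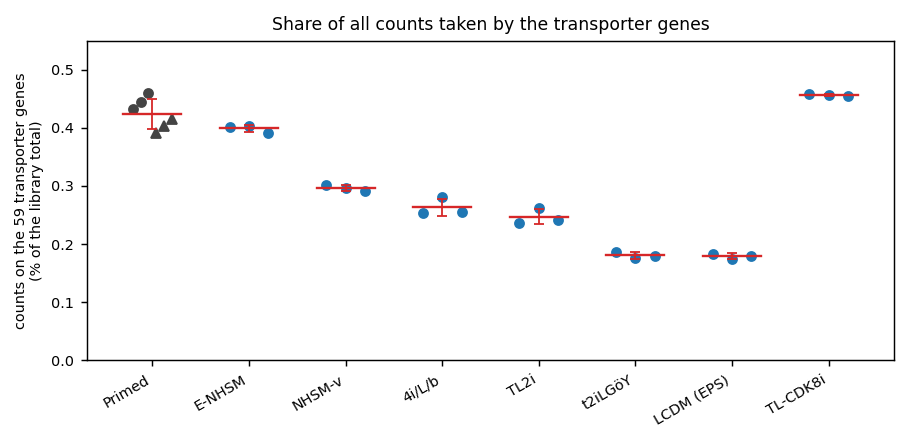
Share of all counts on genes, in percent, that fell on the 59 transporter genes, 1 point for each library, with the group mean as a red line and the SD as a bar; primed libraries of letter J are dark circles and of letter K dark triangles. Means fall from 0.425% in primed to 0.179% in LCDM, while TL-CDK8i, at 0.456%, sits within the range of the primed libraries.

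Gene by gene, members moved more often down than up in the same 5 protocols. A gene was tested where its counts passed edgeR's expression filter and was called where the Benjamini-Hochberg adjusted p of edgeR's quasi-likelihood test, taken over all genes tested, was under 0.05. Nothing in the labels says that replicates came from separate cultures, so p-values measure the spread between these samples, which may be technical. In NHSM-v 29 of the 39 members tested were called, beside 58.6% of all genes tested: 21 fell and 8 rose, where 30.6% of all genes fell and 28% rose. In 4i/L/b 32 of 42 were called, beside 55.6% of all genes: 20 fell and 12 rose, beside 29% and 26.6%. In TL2i 30 of 42 were called, beside 50.7%: 19 fell and 11 rose, beside 25.2% and 25.6%. In t2iLGöY 29 of 43 were called, beside 54.3%: 23 fell and 6 rose, beside 27.2% and 27.1%. In LCDM 31 of 44 were called, beside 57.1%: 24 fell and 7 rose, beside 28.9% and 28.2%. The median log2 fold change of the tested members was -0.50, -0.33, -0.40, -0.83 and -0.72 in these 5 protocols, while the median over all genes tested lay between -0.02 and 0.07.

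Falls and rises were nearer in number in E-NHSM and TL-CDK8i. In TL-CDK8i 48.8% of the members tested were called, near the share of all genes. In E-NHSM 21 of 42 members tested were called, beside 26.2% of all genes: 12 fell and 9 rose, beside 15.1% and 11.1%, and the median was -0.05. In TL-CDK8i 20 of 41 were called, beside 46.1%: 9 fell and 11 rose, beside 23.8% and 22.3%, and the median was 0.11. Both balances rested on the primed libraries used. Against letter K alone 13 rose and 9 fell in E-NHSM and 15 rose and 9 fell in TL-CDK8i, and against letter J alone 8 rose and 11 fell in E-NHSM and 10 rose and 11 fell in TL-CDK8i. The shares of all genes called against each letter are not given here, so these shifts are not shown to be particular to transporters. Of the 59 members, 47 were tested in at least 1 of these comparisons, 36 in all 7, and 42 were called in at least 1. Only SLC1A4, which rose, and SLC38A9 and SLC6A11, which fell, were called in the same direction in all 7 protocols. By the same test 18 members fell in at least 5 protocols, 3 rose in at least 5 (SLC1A2, SLC1A4 and SLC38A6), and 13 rose in some protocols and fell in others. Since all 7 comparisons share the 6 primed libraries, these counts are not 7 independent observations. Matching counts across protocols were not made for all genes, so whether these numbers are unusual for transporters was not tested.

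**Figure D2:**
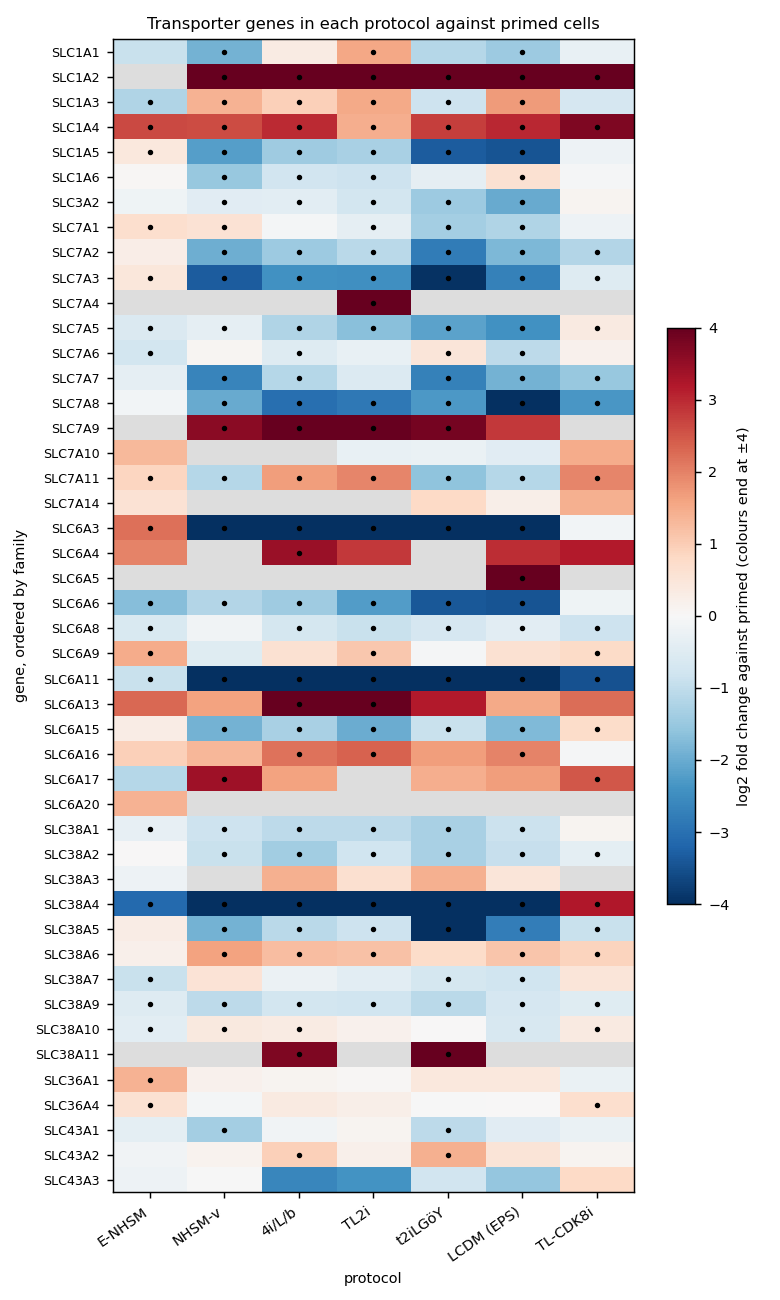
Log2 fold change of the transporter genes tested at least once and reported here (rows, by family) in each protocol against primed cells (columns), with red for higher and blue for lower, colours ending at 4 in either direction, grey where a gene was not tested, and a dot where it was called. The rows of SLC7A2, SLC7A3, SLC38A1, SLC38A2 and SLC6A6 are blue with a dot in LCDM, t2iLGöY, TL2i, 4i/L/b and NHSM-v, while the row of SLC1A4 is red in every column.

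The heteromeric exchangers were led by the pair SLC7A5 and SLC3A2. SLC7A5, or LAT1, brings leucine and other large neutral amino acids into cells together with its heavy chain SLC3A2, also known as CD98. SLC7A5 stood at 893 to 1008 CPM in primed libraries, with a median of 945. It was 647, 641 and 603 CPM in E-NHSM, 761, 780.5 and 763 in NHSM-v, and 406, 473 and 401 in 4i/L/b. All 9 of these libraries lay below every primed library. It was 278, 299 and 321 CPM in TL2i, 235, 160.5 and 238 in t2iLGöY, and 171, 177 and 174 in LCDM. In TL-CDK8i it was 1169, 1339 and 1223 CPM, above every primed library. The gene fell in 6 protocols, from -0.35 ± 0.063 on the log2 scale (SE; adjusted p = 2e-04, edgeR) in NHSM-v to -2.41 ± 0.068 (adjusted p = 3.2e-12, edgeR) in LCDM, and rose by 0.36 ± 0.070 in TL-CDK8i (adjusted p = 0.00071, edgeR).

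SLC3A2 fell in 5 protocols, by less than its partner in each of them but NHSM-v. Its primed libraries ran from 233 to 346 CPM with a median of 293, and the letters differed, at 322 to 346 in J and 233 to 265 in K. Libraries of LCDM held 77.5, 64.3 and 70.4 CPM, those of t2iLGöY 92.7, 106 and 111, and those of TL2i 155, 187 and 178, all below the lowest primed library. SLC3A2 fell by 2.01 ± 0.16 in LCDM, 1.46 ± 0.15 in t2iLGöY and 0.75 ± 0.15 in TL2i on the log2 scale. The falls of 0.46 in NHSM-v and 0.43 in 4i/L/b were called against all 6 primed libraries, overlapped the primed range, and were lost against letter K alone (adjusted p = 0.075 and 0.12, edgeR) and without some single libraries. In E-NHSM and TL-CDK8i its means were 258 ± 10.2 and 323 ± 29.4 CPM (SD, n = 3), both within the range of the primed libraries, although 1 TL-CDK8i library, at 353, lay above it. With letter J alone the gene was called lower in E-NHSM, by 0.40 on the log2 scale, and with letter K alone higher in TL-CDK8i, by 0.38.

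SLC7A11, or xCT, is the light chain that takes up cystine in exchange for glutamate and so feeds glutathione synthesis. It split the protocols into a high and a low set. Primed libraries held 23.2 to 41.6 CPM, with a median of 31.9. Libraries of TL-CDK8i held 147, 118 and 132 CPM, those of TL2i 128, 145 and 109, and those of 4i/L/b 111, 114 and 103. E-NHSM lay between them and primed cells at 47, 59.7 and 72.4 CPM. All 12 of these libraries exceeded every primed one. Libraries of NHSM-v (16.8, 13.8 and 15.8 CPM), LCDM (14.3, 13.4 and 16.4) and t2iLGöY (11.0, 9.38 and 11.5) all lay below every primed library. SLC7A11 was called in all 7 protocols, with log2 fold changes of 1.96 ± 0.16 in TL-CDK8i (adjusted p = 2.5e-07, edgeR), 1.94 ± 0.16 in TL2i, 1.67 ± 0.16 in 4i/L/b and 0.85 ± 0.18 in E-NHSM, against -1.13 ± 0.21 in LCDM, -1.15 ± 0.22 in NHSM-v and -1.61 ± 0.23 in t2iLGöY (adjusted p = 3.6e-05, edgeR).

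The other light chains were mostly lower. SLC7A8, or LAT2, exchanges neutral amino acids and had 92.0 to 121 CPM in primed libraries and 105, 92.9 and 94.4 in E-NHSM, which overlapped. It had 2.45, 4.99 and 2.23 CPM in LCDM, a log2 fold change of -4.97 ± 0.25 (adjusted p = 8.8e-10, edgeR), and 11.9 to 33.3 CPM in the libraries of the 5 other protocols, TL-CDK8i included. SLC7A7, which exports cationic in exchange for neutral amino acids, fell in 5 protocols, to 3.79 ± 0.178 CPM in NHSM-v and 3.47 ± 1.74 in t2iLGöY (SD, n = 3) from a primed median of 24.3, and stood at 18.1 ± 4.36 in E-NHSM and 15.8 ± 4.84 in TL2i, where it was not called. Its close relative SLC7A6 fell in E-NHSM, 4i/L/b and LCDM, by 0.73, 0.51 and 1.04 on the log2 scale, and rose in t2iLGöY by 0.49. SLC7A9, the partner of SLC3A1 in kidney and gut, was at or below 0.865 CPM in every primed library and had means of 5.06 ± 0.611 CPM in 4i/L/b and 4.07 ± 0.434 in TL2i (SD, n = 3), where it rose with adjusted p of 0.0069 and 0.012 (edgeR). It was also called higher in NHSM-v and t2iLGöY, at 3.14 ± 1.58 and 3.44 ± 2.00 CPM (SD, n = 3), calls that were lost without any single NHSM-v library (adjusted p = 0.051 to 0.13, edgeR) and without t2iLGöY replicate 1 or 2 (adjusted p = 0.076 and 0.11, edgeR). SLC3A1 itself never reached more than 8 counts in a library.

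**Figure D3:**
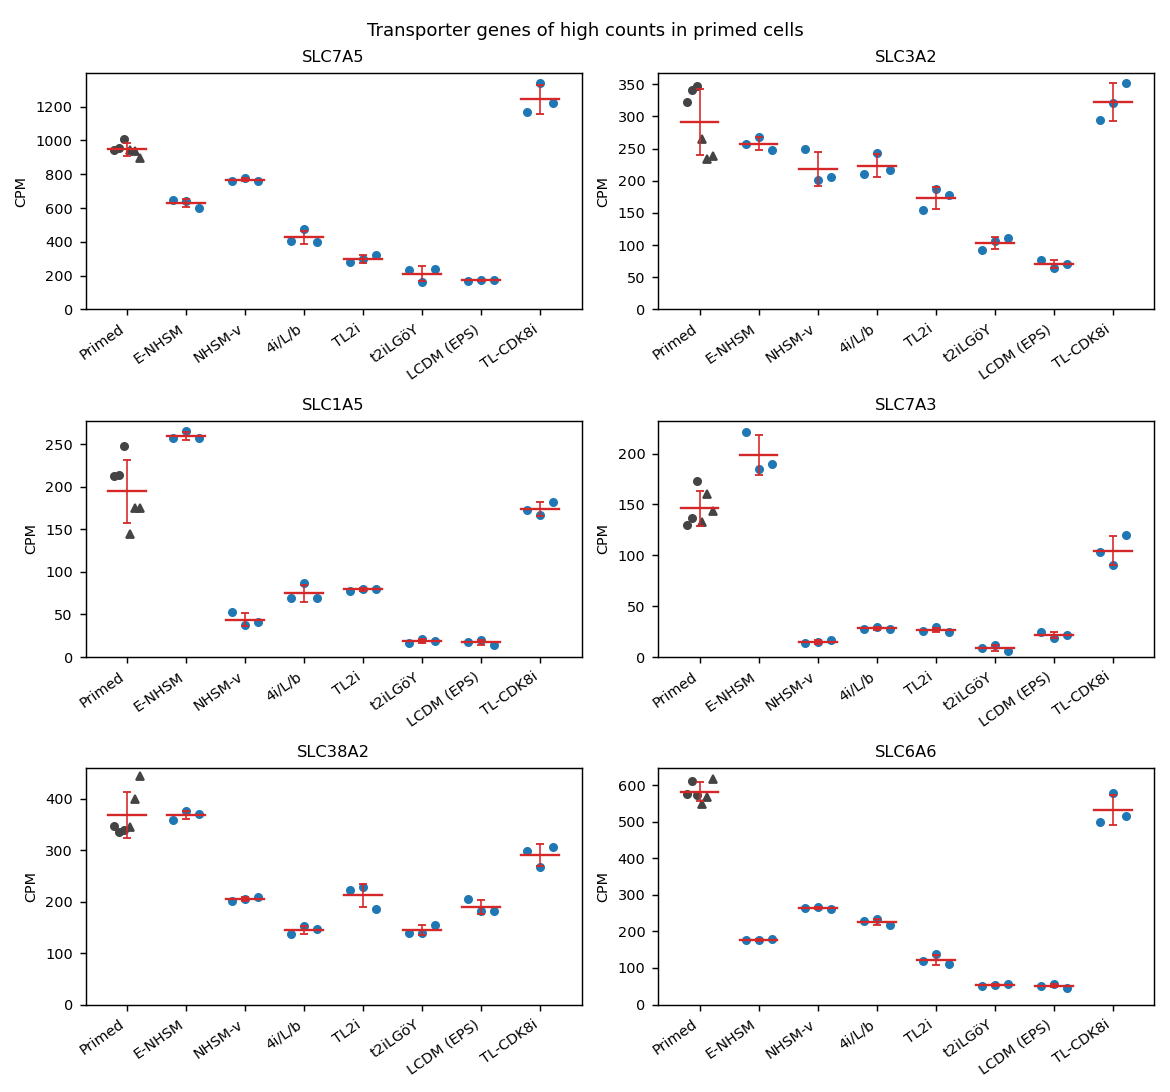
CPM of SLC7A5, SLC3A2, SLC1A5, SLC7A3, SLC38A2 and SLC6A6 in every library, 1 point each, with group means as red lines and SDs as bars on axes that start at 0; primed letters J and K are dark circles and triangles. In all 6 panels t2iLGöY and LCDM lie well below primed cells, and TL-CDK8i lies nearer to primed cells than TL2i does.

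Carriers of cationic amino acids, which import arginine and lysine without a heavy chain, did not move as a block. SLC7A3, or CAT3, fell in 6 protocols and rose in E-NHSM. It stood at 129.9 to 173 CPM in primed libraries (median 140.3) and at 222, 185 and 189 CPM in E-NHSM, which lay above all of them. It was 9.17, 11.9 and 6.27 CPM in t2iLGöY, 13.7, 14.4 and 17.1 in NHSM-v, and 24.6, 18.8 and 21.9 in LCDM. Libraries of 4i/L/b and TL2i held 25.0 to 29.4 CPM, and those of TL-CDK8i 104, 90.9 and 119.5, just below the primed range. The log2 fold change was -3.97 ± 0.20 in t2iLGöY (adjusted p = 3.9e-10, edgeR), -0.51 ± 0.12 in TL-CDK8i (adjusted p = 0.0034, edgeR) and 0.44 ± 0.11 in E-NHSM (adjusted p = 0.005, edgeR), the last losing its call without E-NHSM replicate 1 (adjusted p = 0.057, edgeR).

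SLC7A2, or CAT2, fell in 6 protocols, most in t2iLGöY at 16.6, 15.2 and 17 CPM against 95.4 to 123 in primed libraries (log2 fold change -2.79 ± 0.14, adjusted p = 4.6e-10, edgeR). In E-NHSM it had 138, 153 and 127 CPM, above every primed library, and was not called (adjusted p = 0.075, edgeR), although it was with upper-quartile scaling (adjusted p = 0.029, edgeR). SLC7A1, or CAT1, the broadly expressed member, differed from both. It rose in E-NHSM, with 564, 527 and 555 CPM, and in NHSM-v, with 532, 536 and 511 CPM, all above the primed libraries at 339 to 399.8 in letter J and 288 to 321 in K. It fell in t2iLGöY, with 145, 116 and 126 CPM, and in LCDM, with 151, 143 and 141, all below the primed libraries. Its log2 fold changes were 0.69 ± 0.097, 0.58 ± 0.10, -1.37 ± 0.13 and -1.20 ± 0.11 in this order. NHSM-v libraries thus had more SLC7A1 RNA and less SLC7A3 RNA than primed libraries, a split that E-NHSM did not have. In 4i/L/b and TL-CDK8i its means, 334 ± 30.3 and 303 ± 17 CPM (SD, n = 3), lay within the primed range, and in TL2i a fall of 0.37 on the log2 scale was called (adjusted p = 0.013, edgeR) and was lost without TL2i replicate 1 (adjusted p = 0.06, edgeR) or 3. Against letter J alone SLC7A1 was called lower in TL-CDK8i, by 0.34.

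**Figure D4:**
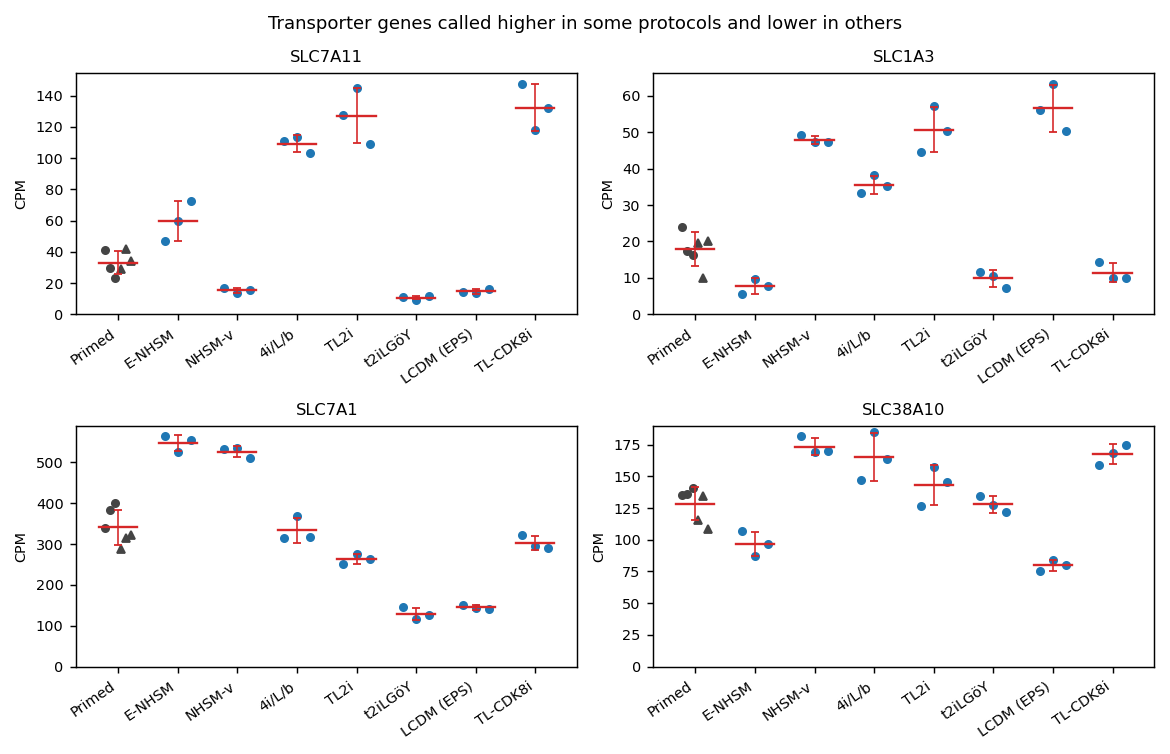
CPM of SLC7A11, SLC1A3, SLC7A1 and SLC38A10 in every library, the transporter genes called higher in at least 2 protocols and lower in at least 2, with means as red lines and SDs as bars on axes that start at 0. SLC7A11 is above the primed libraries in E-NHSM, 4i/L/b, TL2i and TL-CDK8i and below them in NHSM-v, t2iLGöY and LCDM, while SLC1A3 is highest in NHSM-v, TL2i and LCDM.

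In the SLC1A family the neutral carriers SLC1A5 and SLC1A4 moved apart. SLC1A5, or ASCT2, is a main route of glutamine into dividing cells. It had 145 to 248 CPM in primed libraries (median 194), with 213 to 248 in letter J and 145 to 175 in letter K. It fell to 17.5, 20 and 14.6 CPM in LCDM (log2 fold change -3.45 ± 0.19, adjusted p = 2.9e-09, edgeR) and to 16.9, 21.8 and 18.5 CPM in t2iLGöY (-3.32 ± 0.19, adjusted p = 1.7e-09, edgeR). Libraries of NHSM-v, 4i/L/b and TL2i held 38.1 to 86.8 CPM, also below every primed library. E-NHSM libraries, at 257, 265 and 258 CPM, lay above the primed ones (log2 fold change 0.42 ± 0.13, adjusted p = 0.027, edgeR), a call that was lost with letter J alone (adjusted p = 0.11, edgeR) and without any single E-NHSM library. TL-CDK8i libraries, at 172, 167 and 183 CPM, lay among the primed ones, and against letter J alone the gene was called lower there, by 0.40 on the log2 scale.

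SLC1A4, or ASCT1, carries alanine, serine and cysteine, and rose in every protocol. Primed libraries held 9.16 to 13.1 CPM, with a median of 11.2. TL2i, with the smallest rise, had 29.2, 32.7 and 32.0 CPM, a log2 fold change of 1.46 ± 0.18 (adjusted p = 1.6e-05, edgeR). TL-CDK8i, with the widest, had 149.6, 167 and 152 CPM, a log2 fold change of 3.74 ± 0.13 (adjusted p = 1.2e-10, edgeR). The other 5 protocols ran from 56.7 CPM in an NHSM-v library to 100.3 in a 4i/L/b library. No protocol library overlapped the primed range. SLC1A4 was called in all 7 protocols under each alternative that tested it.

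The glutamate carriers of the family are best known from neurons and glia, and SLC1A2 had the largest log2 fold changes among them in the 6 protocols in which it was tested. SLC1A2, or GLT-1, the main glutamate carrier of astrocytes, was at 0 in 3 of the 6 primed libraries and at most 0.359 CPM in the others, 8 counts in all. It reached 32.5, 22.1 and 40.0 CPM in LCDM, 21.7, 23.9 and 19.5 in TL2i and 17.2, 23.8 and 16.4 in 4i/L/b. NHSM-v and t2iLGöY libraries held 8.96 to 11.9 CPM, and TL-CDK8i libraries were spread, at 11.7, 7.79 and 2.85. All 18 of these libraries exceeded every primed one, and the gene rose in these 6 protocols with adjusted p from 3.8e-08 in LCDM to 0.00028 in TL-CDK8i (edgeR). E-NHSM, at 1.13, 2.44 and 0.269 CPM, did not pass the expression filter. With so few primed counts the gene passes it only where a protocol is high, so a fall could not have been called.

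SLC1A3, or GLAST, another glutamate carrier of glia, had 10.02 to 24.0 CPM in primed libraries, with a median of 18.4. It rose in LCDM (56.1, 63.3 and 50.3 CPM), TL2i (44.7, 57.2 and 50.3), NHSM-v (49.1, 47.3 and 47.3) and 4i/L/b (33.2, 38.1 and 35.3), all above the primed libraries, by 1.70 ± 0.22, 1.51 ± 0.22, 1.38 ± 0.22 and 0.94 ± 0.23 on the log2 scale. It fell in E-NHSM, at 5.59, 9.76 and 7.86 CPM, by 1.21 ± 0.30 (adjusted p = 0.0064, edgeR), a call lost without E-NHSM replicate 1 (adjusted p = 0.051, edgeR). The fall in t2iLGöY, at 11.7, 10.4 and 7.35 CPM, was lost without primed library J1 or with letter K alone (adjusted p = 0.065 and 0.098, edgeR), and also without t2iLGöY replicate 2 or 3. SLC1A1, a glutamate carrier of neurons and epithelia, rose in TL2i by 1.55 ± 0.35 and fell in NHSM-v and LCDM by 1.88 ± 0.64 and 1.46 ± 0.53. Neural genes were read beside these carriers and did not share their order across protocols. LCDM was highest in SLC1A2, SLC1A3 and the summed neural genes. In t2iLGöY SLC1A3 fell, with the limits given above, while 9 of 12 neural genes tested rose. Of a list of 14 neural progenitor and glial markers, 12 of 12 tested rose in LCDM, 9 of 12 in t2iLGöY, 9 of 11 in NHSM-v, 7 of 10 in 4i/L/b and 6 of 10 in TL2i, against 3 of 8 in TL-CDK8i and 1 of 8 in E-NHSM, while at most 2 fell in any protocol. Their summed level was 6282 to 6522 CPM in LCDM, 3856 to 4240 in t2iLGöY, 2830 to 3308 in those of TL2i, NHSM-v and 4i/L/b, 2402 to 2646 in primed, 2066 to 2171 in TL-CDK8i and 1321 to 1469 in E-NHSM. NES alone gave a mean of 2437 of 2536 CPM in primed, 1876 of 2120.5 in TL-CDK8i and 1290 of 1408 in E-NHSM. NES was called lower in these 2 protocols and also in NHSM-v and t2iLGöY, and higher in LCDM. FABP7, DCX and TUBB3 rose in TL-CDK8i and DCX in E-NHSM. In LCDM NES gave 3022 of 6379 CPM. Of the astrocyte genes in the list, GFAP averaged 18.0 CPM in TL2i, 13.1 in NHSM-v, 11.2 in 4i/L/b, 8.99 in LCDM, 6.53 in TL-CDK8i, 3.32 in t2iLGöY and 2.53 in E-NHSM against 1.31 in primed. AQP4 averaged 0.867 CPM or less in every group and 0 in NHSM-v. S100B averaged 1.66 CPM in NHSM-v, 1.11 in t2iLGöY, 0.931 in LCDM, 0.717 in 4i/L/b and 0.541 in TL2i. It averaged 0.0370 CPM in E-NHSM and 0 in TL-CDK8i, against 0.0588 in primed. Neither AQP4 nor S100B passed the expression filter against primed in any protocol. The part of such cells in the levels of SLC1A2 and SLC1A3 was not tested.

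Of the sodium-coupled neutral carriers, SLC38A1 and SLC38A2, which supply glutamine and alanine, fell together in 5 protocols. SLC38A1 had 309 to 338 CPM in primed libraries of letter J and 357 to 440.2 in K, and fell most in t2iLGöY, at 150.3, 134 and 147 CPM, by 1.31 ± 0.11 on the log2 scale (adjusted p = 1.4e-07, edgeR). In the libraries of LCDM, TL2i, 4i/L/b and NHSM-v it ran from 168 to 221 CPM and the falls were 0.82 to 1.05. TL-CDK8i libraries, at 412, 394 and 414 CPM, lay within the primed range. In E-NHSM, at 278, 289.6 and 304 CPM, a fall of 0.33 was called (adjusted p = 0.017, edgeR) and was lost with letter J alone (adjusted p = 0.088, edgeR) or without E-NHSM replicate 1 or 2.

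SLC38A2, which cells are known to raise when amino acids run short, had 336 to 444 CPM in primed libraries, with a median of 347. It fell by 1.39 ± 0.099 in 4i/L/b (137, 152 and 147 CPM), 1.31 ± 0.10 in t2iLGöY (139.7, 140.0 and 155), 0.92 ± 0.097 in LCDM (206, 181 and 183), 0.89 ± 0.095 in NHSM-v (201, 206 and 209) and 0.79 ± 0.11 in TL2i (222, 229 and 186). All these libraries lay below the primed ones. In TL-CDK8i a fall of 0.38 ± 0.097 was called (298, 267 and 307 CPM, adjusted p = 0.0054, edgeR), and E-NHSM, at 359, 376 and 371 CPM, overlapped the primed libraries.

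SLC38A4 had the widest range of all members. It is a neutral carrier known from liver and placenta, and the mouse gene is imprinted. Primed libraries held 7.74 to 15.9 CPM apart from K1, at 30.2. All 9 libraries of NHSM-v, t2iLGöY and LCDM were at 0, which makes the gene at least 51.0-fold lower in NHSM-v, at least 76.3-fold lower in t2iLGöY and at least 102-fold lower in LCDM, each against a floor of 3 counts per library. In 4i/L/b 2 counts were found in 1 library and none in the others, 1 part in 238 of the primed level with an exact 95% counting interval of 65.7 to 1967. TL2i libraries held 0.146, 0.351 and 0.423 CPM, a log2 fold change of -5.68 ± 0.56, and E-NHSM libraries 1.36, 1.83 and 2.32, one of -3.10 ± 0.43 (adjusted p = 2.7e-05, edgeR). TL-CDK8i libraries, at 154, 150.3 and 143 CPM, exceeded every primed library, and the log2 fold change was 3.20 ± 0.26 (adjusted p = 2.5e-07, edgeR). Intervals and floors here cover counting error only.

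**Figure D5:**
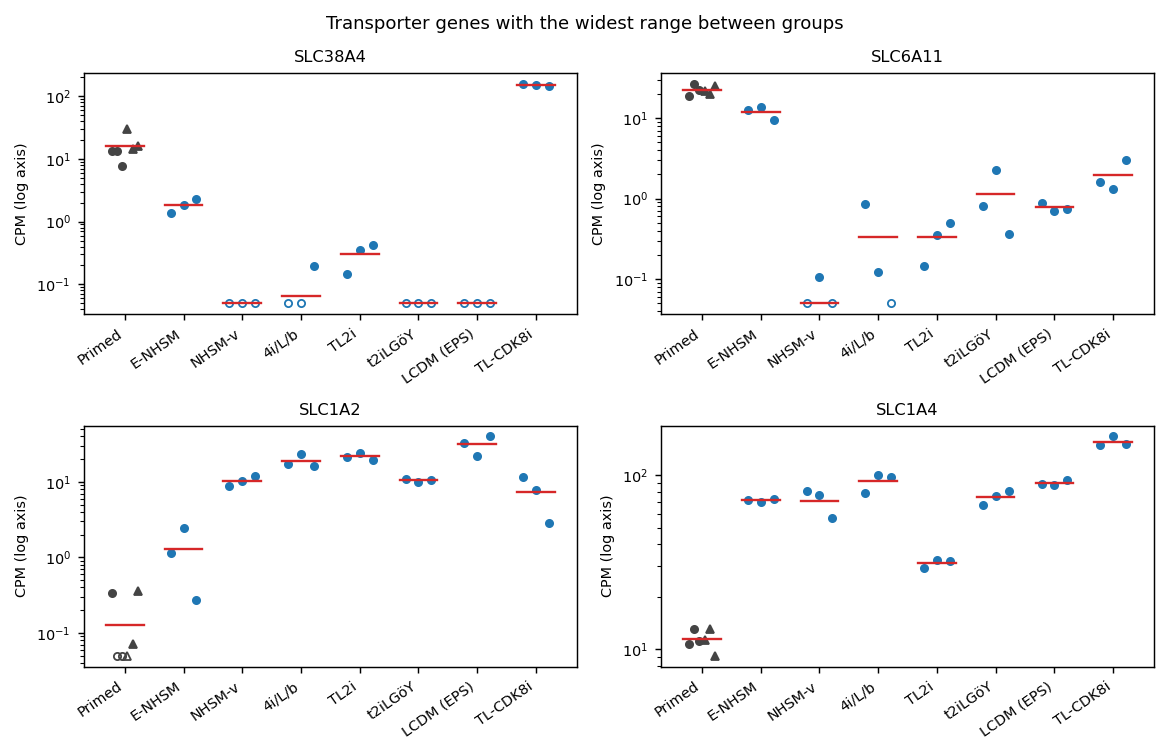
CPM of SLC38A4, SLC6A11, SLC1A2 and SLC1A4 in every library on log axes, with red lines for group means; libraries with no counts are open symbols drawn at the foot of the axis, as is the line of a group with no counts. SLC38A4 runs from 0 in all libraries of NHSM-v, t2iLGöY and LCDM to between 143 and 154 CPM in TL-CDK8i.

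The other SLC38A members moved in both directions. SLC38A5, which carries glutamine and histidine, fell in 6 protocols, to 1.63, 1.47 and 0 CPM in t2iLGöY from 29.8 to 88.0 in primed libraries (log2 fold change -5.52 ± 0.60, adjusted p = 1.8e-06, edgeR). Its primed level rested on the letter, at 48.0 to 88.0 CPM in J and 29.8 to 39.9 in K, and with K alone the falls in TL2i and TL-CDK8i were not called (adjusted p = 0.089 and 0.067, edgeR) while a rise of 0.77 on the log2 scale in E-NHSM was. SLC38A6, whose substrates are less well described, rose in 5 protocols, most in NHSM-v, at 17.5, 20.9 and 20.4 CPM against 3.65 to 8.45 in primed libraries (log2 fold change 1.61 ± 0.30). Its rise of 0.89 in TL-CDK8i was lost without any single TL-CDK8i library (adjusted p = 0.068 to 0.19, edgeR). SLC38A10 changed by 0.65 or less on the log2 scale in every protocol, rising in NHSM-v, 4i/L/b and TL-CDK8i and falling in E-NHSM and LCDM. The rise in NHSM-v (182, 169 and 169.7 CPM against 135 to 141 in primed libraries of letter J and 109 to 135 in K) and the fall in LCDM (75.7, 84.2 and 79.9 CPM) held whichever library was left out, and each of the 3 other calls was lost without some single libraries. SLC38A7, a lysosomal glutamine carrier, fell in E-NHSM, t2iLGöY and LCDM by 0.90, 0.69 and 0.78, and stood at 33.7 ± 4.50 CPM in NHSM-v (SD, n = 3) against a primed median of 22.0, without a call.

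The lysosomal arginine sensor SLC38A9 fell in every protocol, by less than most members. Primed libraries held 49.4 to 61.2 CPM in letter J and 64.1 to 74.3 in K. Its lowest libraries were those of t2iLGöY, at 29.6, 33.0 and 24.6 CPM (log2 fold change -1.08 ± 0.16, adjusted p = 5.5e-05, edgeR), and NHSM-v, at 28.5, 30.6 and 34.3 (-1.06 ± 0.15, adjusted p = 3e-05, edgeR). The falls were 0.79 in TL2i, 0.73 in 4i/L/b and 0.66 in LCDM, and every library of these 5 protocols lay below the primed ones. In E-NHSM (36.8, 52.2 and 43.8 CPM) and TL-CDK8i (44.3, 50.4 and 43.5) 1 library each reached the primed range, and the calls, with adjusted p of 0.02 and 0.012 (edgeR), were lost with letter J alone (adjusted p = 0.16 and 0.11, edgeR). SLC36A1, which carries small neutral amino acids out of the lysosome with protons, rose in E-NHSM, at 77.5, 56.7 and 73.0 CPM against 13.5 to 35.4 in primed libraries (log2 fold change 1.38 ± 0.21, adjusted p = 8.6e-05, edgeR). In the other 6 protocols it had means of 22.4 to 34.9 CPM and no call. Its primed libraries differed by letter, at 13.5 to 26.2 CPM in J and 31.0 to 35.4 in K, and with J alone rises of 0.80 in t2iLGöY and 0.82 in LCDM were called, with K alone a fall of 0.56 in TL-CDK8i. SLC36A4 rose in E-NHSM and TL-CDK8i by 0.60 and 0.67, to 84.0 ± 9.57 and 89.8 ± 7.19 CPM (SD, n = 3) against 41.2 to 71.1 in primed libraries. SLC43A2, which lets neutral amino acids leave cells by facilitated diffusion, rose in t2iLGöY and 4i/L/b by 1.43 and 0.97.

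Of the SLC6A family, the taurine carrier SLC6A6 gave the plainest fall. Primed libraries held 548 to 617 CPM, with a median of 574. Libraries of LCDM held 51.9, 56.0 and 46.5 CPM, those of t2iLGöY 50.8, 52.8 and 57.5, and those of TL2i 119, 138 and 112. Those of E-NHSM held 176, 175 and 179.9 CPM, those of 4i/L/b 227, 234 and 217, and those of NHSM-v 265, 266 and 262. All 18 lay below every primed library, and the log2 fold changes ran from -3.46 ± 0.089 in LCDM (adjusted p = 1.4e-12, edgeR) to -1.19 ± 0.071 in NHSM-v (adjusted p = 2.2e-09, edgeR). TL-CDK8i, at 499, 579 and 517 CPM, overlapped the primed libraries. In E-NHSM, where SLC7A3 and SLC7A1 rose, SLC6A6 fell by 1.71 ± 0.074 (adjusted p = 1.9e-11, edgeR). The creatine carrier SLC6A8 fell in 6 protocols by 0.41 to 0.91, to means of 97.4 CPM in TL2i to 134 in LCDM from 183 ± 14.2 in primed (SD, n = 6), and had 173 ± 6.37 CPM in NHSM-v (SD, n = 3), where it was not called.

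The carriers of GABA and dopamine held the deepest falls of the family. SLC6A11, the GABA carrier GAT3, had 19.0 to 26.4 CPM in primed libraries and 12.7, 13.8 and 9.58 in E-NHSM. In NHSM-v a single count was found in 3 libraries against 1385 in primed, 1 part in 653 of the primed level with an exact 95% counting interval of 117 to 25813. The libraries of 4i/L/b, TL2i, t2iLGöY and LCDM held 0 to 2.28 CPM, and those of TL-CDK8i 1.61, 1.32 and 3.04, a log2 fold change of -3.50 ± 0.32 (adjusted p = 6.9e-07, edgeR). The fall in E-NHSM (-0.89 ± 0.23, adjusted p = 0.0064, edgeR) was lost without E-NHSM replicate 3 (adjusted p = 0.057, edgeR) and when all groups shared 1 fit (adjusted p = 0.13, edgeR). SLC6A13, the GABA carrier GAT2, went the other way from SLC6A11 in 4i/L/b, at 6.85, 6.52 and 6.29 CPM, and TL2i, at 6.93, 7.66 and 3.32, where it rose. Primed libraries held at most 1.5 CPM, with counts in 2 libraries of letter J and none in the other 4. The call in TL2i was lost without TL2i replicate 1 or 2 (adjusted p = 0.057 and 0.066, edgeR). SLC6A3, the dopamine carrier, had 1.90 to 6.48 CPM in primed libraries and 14.9, 14.5 and 14.9 in E-NHSM, a rise of 2.21 ± 0.41 (adjusted p = 0.00045, edgeR). It was at 0 in all libraries of NHSM-v, TL2i and t2iLGöY, at least 10.4-fold, 18.0-fold and 15.5-fold lower, and had 2 counts each in 4i/L/b and LCDM, 1 part in 42.6 of the primed level (exact 95% counting interval 11.6 to 354) and 1 part in 86.4 (23.6 to 719). In TL-CDK8i it had 3.80, 1.43 and 4.00 CPM, overlapping the primed libraries.

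Among the amino acid carriers of SLC6A, SLC6A15, which carries proline and branched-chain amino acids and is known from brain, fell in 5 protocols and rose in TL-CDK8i. It stood at 40.3 to 53.8 CPM in primed libraries, at 81.4, 71.7 and 76.7 in TL-CDK8i (log2 fold change 0.72 ± 0.12, adjusted p = 0.00024, edgeR), and between 10.7 and 27.5 in those of LCDM, t2iLGöY, TL2i, 4i/L/b and NHSM-v. E-NHSM libraries, at 45.9, 68.8 and 53 CPM, overlapped the primed ones. SLC6A9, the glycine carrier GlyT1, rose in E-NHSM by 1.497 ± 0.27, to 40.9, 43 and 31.0 CPM from 7 to 21.8 in primed, and also in TL2i and TL-CDK8i, by 1.07 and 0.76, the latter at the threshold (adjusted p = 0.05, edgeR) and with overlapping libraries. SLC6A5, the glycine carrier GlyT2 of inhibitory neurons, was at 0 in every primed library and at 5.06, 3.42 and 3.4 CPM in LCDM, at least 13.1-fold higher. SLC6A17, a vesicular carrier of neutral amino acids in neurons, rose in NHSM-v, at 4.71, 7.57 and 9.69 CPM against 1.56 or less in primed, and its call in TL-CDK8i (adjusted p = 0.046, edgeR) was lost when any TL-CDK8i library was left out. SLC6A16, an orphan member, rose in 4i/L/b, TL2i and LCDM, to means of 8.91, 9.73 and 7.40 CPM, from 1.93 to 3.80 in letter J and 0.449 to 1.12 in letter K. Its call in LCDM was lost without LCDM replicate 2 or 3 (adjusted p = 0.061 and 0.086, edgeR).

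TL-CDK8i and TL2i share tamoxifen and LIF and differ in the inhibitors, and most transporters were higher in TL-CDK8i. Of 43 members tested 30 were called, beside 64.9% of all genes: 23 were higher and 7 lower in TL-CDK8i, beside 31.5% and 33.3%, and the median log2 difference was 0.43 over members and -0.04 over all genes. SLC38A4 stood apart with a difference of 8.94 ± 0.19 (adjusted p = 1.6e-12, edgeR). SLC6A15 was higher by 2.73 ± 0.12, SLC1A4 by 2.30 ± 0.097, SLC6A6 by 2.09 ± 0.10, SLC7A5 by 2.04 ± 0.099 and SLC7A3 by 1.96 ± 0.12, each with no overlap of the 3 libraries on either side. SLC3A2 and the glutamine routes SLC1A5, SLC38A1 and SLC38A2 were higher by 0.88, 1.11, 1.17 and 0.43. SLC43A3, a carrier of purine nucleobases rather than amino acids, was higher by 3.23 ± 0.45, at 7.14, 5.04 and 3.81 CPM against 0.351 to 0.846. The dopamine carrier SLC6A3 was at least 17.3-fold higher. On the lower side stood SLC1A3 (-2.17 ± 0.16), SLC6A16 (-2.37 ± 0.30), SLC7A9 (-4.46 ± 0.62), SLC1A1 (-1.84 ± 0.23), SLC6A13 (-1.74 ± 0.52, not called when all groups shared 1 fit), SLC1A2 (-1.58 ± 0.32) and SLC7A7 (-0.97 ± 0.23). SLC7A11 differed by 0.04 ± 0.11 (adjusted p = 0.78, edgeR), and SLC7A2, SLC7A1 and SLC6A8 differed by -0.07 ± 0.14, 0.18 ± 0.088 and 0.09 ± 0.089 without a call. Pluripotency genes moved beside these differences: 6 of 8 were higher in TL-CDK8i and none lower. Of the other lists, 3 neural genes were higher and 7 lower of 10 tested, 2 endoderm genes higher and 5 lower of 7, 1 trophoblast gene higher and 4 lower of 6, and 4 fibroblast genes higher and 1 lower of 9. The part of these markers in the transporter differences was not tested.

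The 7 protocols also differed among themselves without reference to primed cells. An F test over the 21 protocol libraries called 45 of the 47 members tested, where 90.9% of all genes tested were called. SLC38A3, at 2.11 CPM or less in every library, was tested and not called (adjusted p = 0.29, edgeR).

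Genes that act around the transporters were read from lists. Of all genes tested, 11.1% rose and 15.1% fell in E-NHSM, and 22.3% and 23.8% in TL-CDK8i. In the other protocols 25.6% to 28.2% rose and 25.2% to 30.6% fell. Between TL-CDK8i and TL2i, 31.5% were higher in TL-CDK8i and 33.3% lower. The counts below were not tested against these shares. Of 19 genes of amino acid synthesis and the starvation response, 13 rose and 2 fell in E-NHSM. The list holds ATF4 itself, EIF2AK4 and EIF2AK3 beside genes that ATF4 drives together with transporters such as SLC7A11 and SLC7A5. ASNS, which makes asparagine, averaged 717 CPM in E-NHSM and 205 in primed (log2 fold change 1.81 ± 0.11), and PSAT1, of serine synthesis, 728 and 227. In t2iLGöY 1 of the 19 rose and 13 fell, in LCDM and NHSM-v 2 rose and 12 fell, in TL2i 3 rose and 11 fell, and in 4i/L/b 3 rose and 8 fell. ASNS averaged 44.3 CPM in t2iLGöY and 53.5 in NHSM-v. In TL-CDK8i 9 rose and 3 fell, with ASNS at 241 CPM and no call and TRIB3, a target of ATF4, at 55.5 against 8.72 (log2 fold change 2.63 ± 0.21), and against TL2i 16 were higher and none lower. In E-NHSM ASNS, PHGDH, PSAT1 and SLC7A11 rose while SLC7A5 fell. In NHSM-v, t2iLGöY and LCDM all of these genes fell. In 4i/L/b and TL2i SLC7A11 rose while SLC7A5, ASNS, PHGDH and PSAT1 fell. In TL-CDK8i SLC7A5, SLC7A11 and PSAT1 rose and PHGDH fell. ATF4 itself averaged 1154 CPM in E-NHSM, 651 in TL-CDK8i and 300 to 504 in the other protocols, against 656 in primed. The part of ATF4 in the transporter levels was not tested. Of 21 genes of lysosomal amino acid sensing and the mTORC1 input, 4 rose and none fell in E-NHSM, 5 and 4 in NHSM-v, 4 and 3 in 4i/L/b, 4 and 2 in TL2i, 7 and 1 in t2iLGöY, 7 and 4 in LCDM, and 4 and 2 in TL-CDK8i, and 6 were higher and 5 lower in TL-CDK8i than in TL2i. Of the amino acid carriers outside the rule, 17 were tested against primed in each protocol but LCDM, with 18. In E-NHSM 1 rose and 4 fell, in NHSM-v 7 and 6, in 4i/L/b 4 and 8, in TL2i 4 and 5, in t2iLGöY 5 and 6, in LCDM 5 and 6, and in TL-CDK8i 0 and 3, and 6 were higher and 5 lower of 15 in TL-CDK8i against TL2i. SLC25A18, a mitochondrial glutamate carrier, fell in all 7 protocols, from a primed mean of 9.14 CPM to 3.13 in E-NHSM, where the fall was smallest (1.55 ± 0.55 on the log2 scale), and to 0.0598 in NHSM-v.

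Several members are neighbours on the chromosomes, by their order in the RefSeq annotation of the rhesus assembly T2T-MMU8v2.0, in which all 59 symbols were found and from which no coordinates were taken. SLC38A1, SLC38A2 and SLC38A4 follow each other on chromosome 11 with no protein-coding gene between them. All 3 fell in LCDM, t2iLGöY, TL2i, 4i/L/b and NHSM-v, by unequal amounts: in LCDM SLC38A4 was at 0 in all libraries, while SLC38A1 and SLC38A2 fell by 0.87 and 0.92 on the log2 scale, to 195 ± 23.0 and 189.9 ± 13.7 CPM (SD, n = 3). In E-NHSM SLC38A4 and SLC38A1 fell and SLC38A2 was not called. In TL-CDK8i SLC38A4 rose by 3.20 while SLC38A2 fell by 0.38 and SLC38A1 had a log2 fold change of 0.12 ± 0.10 without a call. SLC6A12 and SLC6A13 are adjacent on chromosome 11, and SLC6A12 was not tested in any comparison with primed, with 22 counts or fewer in every library.

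The remaining members were sparse. In the comparisons with primed cells 12 members were never tested, and 4 of these (SLC36A2, SLC36A3, SLC6A18 and SLC7A13) had 3 counts or fewer in every library, SLC7A13 none at all. The other untested members were SLC1A7, SLC38A8, SLC3A1, SLC6A2, SLC6A7, SLC6A12, SLC6A14 and SLC6A19, with at most 22 counts in a library. They include carriers typical of kidney and intestine, such as SLC6A19, SLC6A18 and SLC36A2. At these depths a level below 0.138 to 0.422 CPM could not be told from none. SLC7A4 had no counts in primed, E-NHSM or NHSM-v libraries and 0.917 to 1.23 CPM in TL2i, where it was at least 3.43-fold higher. SLC38A11 was tested in 4i/L/b and t2iLGöY and rose in both, from 0 in all primed libraries but K2. It was not tested in NHSM-v, where libraries held 4.13, 2.73 and 0.628 CPM. SLC7A4, SLC38A11, SLC6A5 and SLC1A2 had few or no primed counts. Such genes pass the expression filter only through the protocol libraries, so a call could only be a rise. Of the members tested and not yet described, SLC1A6, a glutamate carrier of the cerebellum, fell in NHSM-v, TL2i and 4i/L/b by 1.51, 0.82 and 0.78 and rose in LCDM by 0.62 on the log2 scale. SLC43A1, a facilitated carrier of neutral amino acids, fell in NHSM-v and t2iLGöY by 1.36 and 1.04. SLC6A4, the serotonin carrier, rose in 4i/L/b, at 1.74, 3.20 and 2.61 CPM against 1.07 or less in primed libraries. SLC6A20, SLC7A10, SLC7A14 and SLC38A3 were tested against primed cells in 1, 5, 4 and 5 protocols and called in none by edgeR, as was SLC43A3 in 7, although DESeq2 called the last lower in 4i/L/b (adjusted p = 0.021). SLC7A10 and SLC7A14 were higher in TL-CDK8i than in TL2i, by 1.76 ± 0.52 and 2.89 ± 0.48.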

How the data were processed

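The 27 libraries (6 primed, 3 of each of 7 protocols) had been made from 200 ng of RNA with a directional mRNA kit. The submitters' processing notes name bcl2fastq, cutadapt, HISAT2 and HTSeq. The authors deposited raw read counts per gene symbol, with no normalisation. The genome build, the annotation and whether counting used strand are not given in the sources used here, and reads shared by related genes could be split or lost.

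Groups were taken from the sample labels. Total counts were 7111886 to 20760914 per library. Counts were scaled by TMM, filtered with filterByExpr, and tested with glmQLFit and glmQLFTest (edgeR 4.0.16, R 4.3.3) on the groups of each comparison. Adjusted p-values (Benjamini-Hochberg) were taken over all genes kept, with a threshold of 0.05. CPM used TMM factors over all 27 libraries. The steps were checked on simulated counts. The 36 pairs of replicates differed by more than counting noise, with a chi-square per gene of 3.98 to 29.8, so each library was counted as 1 sample.

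Genes named with values were those called in 1 direction in at least 5 comparisons with primed cells, the 2 highest and 2 lowest called log2 fold changes in each comparison at a mean of at least 5 CPM in either group, those called both ways in at least 2 protocols each, 10 genes with textbook roles and the 3 of highest primed CPM. Other members given with values (SLC7A6, SLC38A7, SLC38A11, SLC36A4, SLC43A2, SLC43A1, SLC6A4, SLC6A5, SLC6A9, SLC7A4, SLC7A10, SLC7A14, SLC38A3, SLC1A1 and SLC1A6) were chosen after their values were seen, as were the genes named from the lists. The members, the gene lists and the marker lists were chosen with earlier results of these data known. Alternatives were DESeq2 1.42.0, upper-quartile scaling, other filters, a minimum fold change, 1 fit of all groups, primed letters apart, a replicate block and leaving out each library. The values of 1 member, which enters the counts, are not reported here.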

Additional observations from a re-analysis of the deposited data

Results flagged for a closer look

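Of the 31 members named by rule, each was examined in the primed group for a library far from the other 5, and 2 were found. Chance alone gives about 1 in 20 such groups. SLC38A4 stood at 30.2 CPM in primed library K1, where the others held 7.74 to 15.9 CPM, a gap of 0.637 of the whole range. Without K1 its calls in all 7 protocols stayed on the same side of the threshold. SLC7A7 stood at 14.5 CPM in primed library J3, where the others held 23.4 to 26.3 CPM, a gap of 0.751 of the range. Both gaps exceed Dixon's 95% critical value for 6 libraries. Without J3 the fall of SLC7A7 in TL2i, not called with all libraries, was called (log2 fold change -0.64, adjusted p = 0.016, edgeR).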

How the results depend on the processing

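Of 244 values of named members, 187 were called, and none changed direction while called. Leaving aside the minimum fold change, 161 of these calls held under every alternative that tested them, 26 were lost under at least 1, and 27 values gained a call. Requiring an absolute log2 fold change of at least 1 for a call left 8 members in E-NHSM and 9 in TL-CDK8i, from 21 and 20. Requiring 10 counts in every library left 28 members called among the protocols, since fewer were tested. Leaving out 1 library at a time gave 14 to 23 called members in E-NHSM, 25 to 30 in NHSM-v, 27 to 33 in 4i/L/b, 27 to 31 in TL2i, 25 to 29 in t2iLGöY, 28 to 33 in LCDM, 14 to 20 in TL-CDK8i, 28 to 32 in TL-CDK8i against TL2i and 45 to 47 among the protocols. The shares of all genes called under these alternatives are not given, so the counts describe only how the calls of the members held. The E-NHSM balance of 9 higher and 12 lower became 11 and 10 when all groups shared 1 fit. Deviations of same-numbered libraries of different protocols correlated at -0.122 to 0.0625 over 63 pairs, so the numbers were not treated as pairs, and the primed columns carry letters that could not be tied to the labels' numbers. With a replicate block, 29 members were called in TL-CDK8i against TL2i and 45 among the protocols, and the call of SLC7A8 in the former was lost (adjusted p = 0.06, edgeR). The causes of these changes were not tested. Members near the floor of 3 counts, 0.138 to 0.422 CPM, could be compared only by bounds.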
